A study of Mus musculus with 12 samples.

Results

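Laminins, nidogens and integrins are the matrix proteins of the basement membrane and the receptors by which cells hold on to it. A laminin is a trimer of 1 alpha, 1 beta and 1 gamma chain that self-assembles into a sheet on the cell surface. Nidogens, perlecan (Hspg2) and agrin (Agrn) bind that sheet, and nidogens and perlecan join it to the type IV collagen network. Integrins are dimers of an alpha and a beta chain that bind laminin, fibronectin or vitronectin outside the cell and the actin cytoskeleton inside it, and dystroglycan (Dag1) is a further laminin receptor. In embryoid bodies, a basement membrane forms between the outer endoderm and the inner epiblast-like cells and is needed for the inner cells to become an epithelium.

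The members were chosen by name. They are the array probes that the scanner files annotate to a laminin chain or an integrin chain, or to Nid1, Nid2, Hspg2, Agrn, Fn1, Sparc, Vtn or Dag1. The rule took 102 of 41174 non-control probes, which stand for 50 of 27724 genes. The files carry 2 versions of the annotation, of which the earlier one names 101 of these probes and the later one 90, and the union was used. Of the 50 genes, 39 had a probe that was well above background on both arrays of at least 1 group and were tested. The other 11, which have no value here beyond being dim or unevenly measured, were Itga2, Itga4, Itga10, Itgam, Itgax, Itgb6, Itgb2l, Itgbl1, Itgb1bp2, Nmrk2 (named Itgb1bp3 in the files) and the laminin chain Lama2.

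The cells were mouse embryonic stem cells of strain 129, profiled as 1-colour Agilent arrays, 2 arrays (clone #1 and clone #2) in each of 6 groups. The groups were embryoid bodies (EB, floating aggregates) at days 1, 3 and 4, monolayers (ML, cells spread on a surface) at days 1 and 3, and undifferentiated cells, whose titles name LIF, the cytokine that holds stem cells undifferentiated. Both arrays of a group came from experiments by different people, per the design text, and the labels give no further allele, agent or coating. The stem cell markers Pou5f1, Nanog, Zfp42 and Sox2 were well above background on all 12 arrays, but their levels were not kept. All of them were lower on both EB day 4 arrays than on both undifferentiated arrays. Sox2, for example, had log2 signals of -1.23 and -0.64 in EB day 4, against 3.69 and 3.87 in undifferentiated cells. Per the file headers, slide 1 held the undifferentiated arrays (scan day 1), slide 2 the EB arrays of days 1 and 3 and slide 3 all ML arrays (both scan day 2), and slide 4 the EB day 4 arrays (scan day 3). Comparisons that involve EB day 4 or undifferentiated cells therefore cannot be told apart from slide and scan day, and the comparison of EB with ML cannot be told apart from slide.

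Levels of single genes below are log2 signals relative to the 75th percentile of the array. They compare arrays for 1 probe and are never set between probes. Summed levels of marker lists are on the linear scale and add the signals of several probes, so bright probes weigh most in them. Between 52.1% and 63.8% of spots were well above background on an array. Replicate arrays correlated at 0.972 to 0.992 across genes, and the ML day 3 arrays stood furthest apart, with 18.2% of genes differing at least 2-fold, against 3.38% for EB day 1. A gene was called when its adjusted p (limma, Benjamini-Hochberg over 17531 genes) was under 0.05, and an SE beside a change is that of the fit. Fewer cells of a type and less RNA per cell cannot be told apart in such bulk samples.

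**Figure D1:**
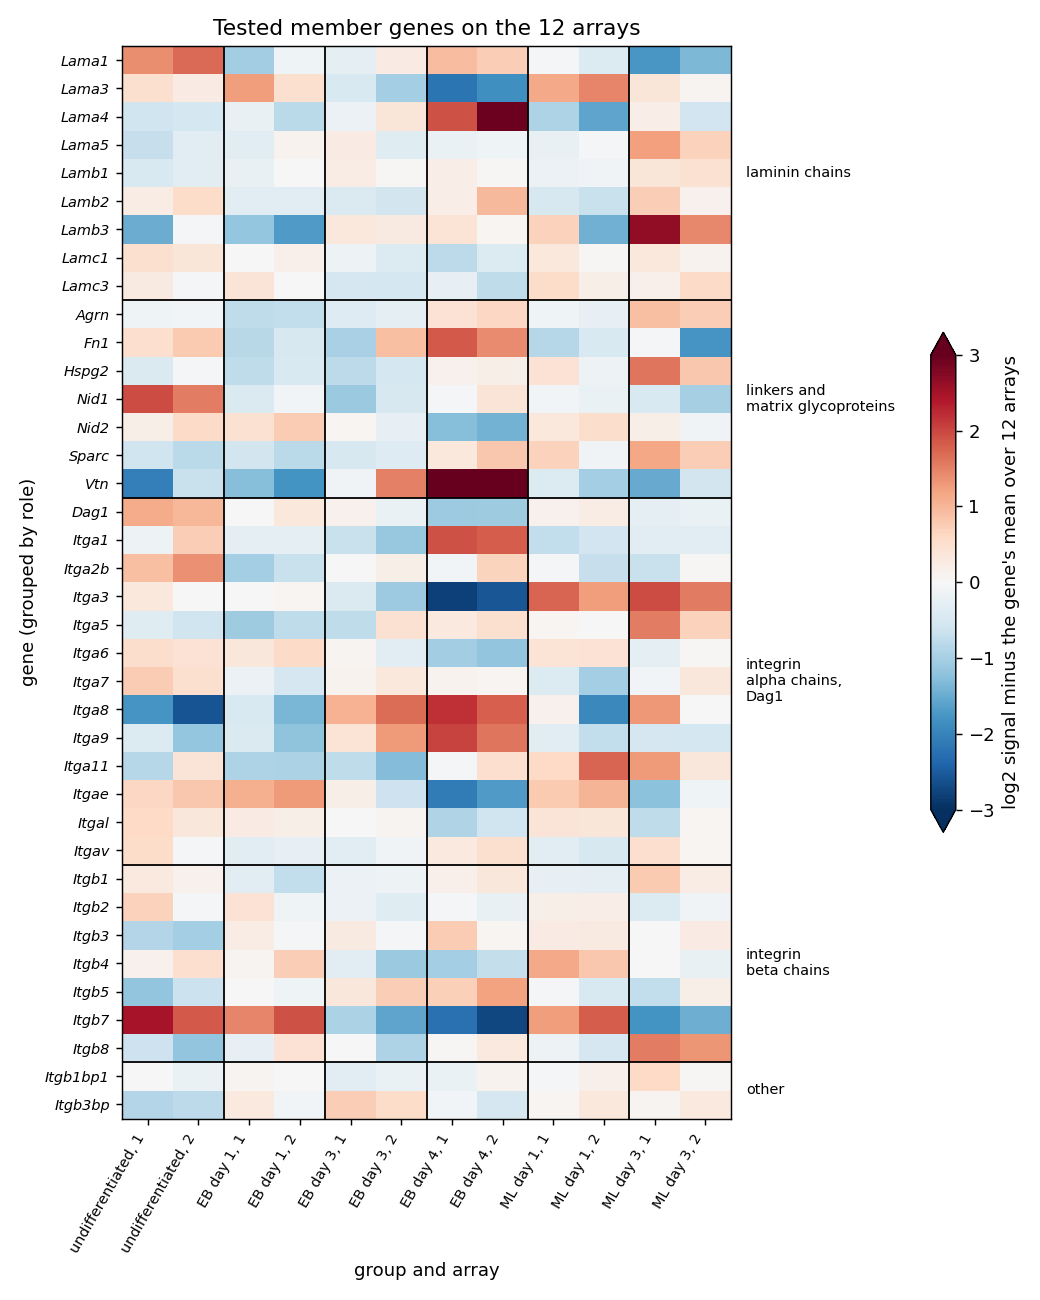
Heat map of 38 of the tested genes (rows, grouped by role) on the 12 arrays (columns, 2 per group). Colour is the log2 signal minus the gene's mean over all arrays, cut at 3 either way. Itga3 is red on the ML arrays and blue on the EB day 4 arrays, Itgb7 is red on undifferentiated and day 1 arrays, and Vtn is red on both EB day 4 arrays.

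The sequences that bear on the comparison of formats are shown first. RefSeq promoters of 300 bases (250 before to 50 after a start, GRCm38.p6) were available for 34 of the 50 genes, with 39 start windows. Lama1 was not among them. Itga3, Hspg2 and Agrn, 3 of the genes that were lower in EB day 3 than in ML day 3, are printed because they were lower together. RefSeq lists 2 windows for Itga3 and 2 for Agrn, and for Agrn the one with more matches is shown. Capitals mark every match, on either strand, to one of 7 motifs. They are the GC box GGGCGG, the TATA box TATAAA, the GATA motif forms AGATAA and also TGATAA, the TCF motif ACAAAG, the AP-1 motif TGANTCA and the TEAD motif GGAATG. The AP-1 and TEAD motifs were chosen after the values were seen, and matches to GGGCGG may overlap one another.
Itga3, minus strand of chr11:95076665-95076964: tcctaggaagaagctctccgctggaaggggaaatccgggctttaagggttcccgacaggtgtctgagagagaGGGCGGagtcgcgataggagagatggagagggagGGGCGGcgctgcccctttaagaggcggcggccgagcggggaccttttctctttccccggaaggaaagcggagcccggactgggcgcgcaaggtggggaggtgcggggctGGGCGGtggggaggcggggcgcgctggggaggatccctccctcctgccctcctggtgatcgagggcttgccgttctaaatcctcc
Itga3, minus strand of chr11:95069149-95069448: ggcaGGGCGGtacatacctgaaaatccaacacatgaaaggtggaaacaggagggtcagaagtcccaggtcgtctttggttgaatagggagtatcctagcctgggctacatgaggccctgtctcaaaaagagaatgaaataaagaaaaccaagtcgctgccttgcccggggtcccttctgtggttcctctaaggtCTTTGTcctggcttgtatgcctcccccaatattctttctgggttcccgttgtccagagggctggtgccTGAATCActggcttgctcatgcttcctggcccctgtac
Hspg2, plus strand of chr4:137468553-137468852: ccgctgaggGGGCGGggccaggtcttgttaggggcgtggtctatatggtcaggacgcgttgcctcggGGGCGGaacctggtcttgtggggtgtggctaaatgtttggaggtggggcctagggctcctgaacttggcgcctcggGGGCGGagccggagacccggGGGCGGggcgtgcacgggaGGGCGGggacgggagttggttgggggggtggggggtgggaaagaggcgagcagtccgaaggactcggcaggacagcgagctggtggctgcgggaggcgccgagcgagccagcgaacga
Agrn, minus strand of chr4:156197439-156197738: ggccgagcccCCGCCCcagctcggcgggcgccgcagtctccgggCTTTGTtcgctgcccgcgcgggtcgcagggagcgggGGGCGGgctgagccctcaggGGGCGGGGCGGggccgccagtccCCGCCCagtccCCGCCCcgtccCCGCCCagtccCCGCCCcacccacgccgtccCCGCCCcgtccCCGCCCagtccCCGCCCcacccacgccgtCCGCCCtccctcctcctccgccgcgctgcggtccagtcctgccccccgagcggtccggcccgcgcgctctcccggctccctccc

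The Agrn window held 12 GGGCGG matches, the Hspg2 window 5, and the Itga3 windows 3 and 1. The window of Sparc, also lower in EB day 3, held no match to any of the 7 motifs. GGGCGG occurred in 20 of the 39 member windows (51.3%) and in 35.6% of all 32817 RefSeq windows of that length. TGANTCA occurred in 3 member windows (7.69%), one of them the downstream Itga3 window, and in 7.81% of all windows. GGAATG occurred in 12.8% of member windows and 14.7% of all windows, ACAAAG in 12.8% and 18.7%, TATAAA in 5.13% and 13.6%, and AGATAA in 5.13% and 11.2%. TGATAA was in 0 of the member windows and in 9.06% of all windows. These matches describe the letters in the windows and were not tied to any binding.

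A pair of array probes is shown for what each can see. Both cross an exon junction, since their mm9 span is longer than their 60 bases.
Lama1, mm9 chr17:68167016-68167978, plus strand: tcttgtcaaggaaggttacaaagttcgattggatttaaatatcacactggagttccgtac
Itga3, mm9 chr11:94915485-94917062, minus strand: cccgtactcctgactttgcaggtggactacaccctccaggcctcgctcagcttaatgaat
The first is the only Lama1 probe of the array. The second is one of 3 Itga3 probes and lies further from the 3′ end of the gene than the other 2. It did not pass the threshold where they did, as given below.

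EB day 3 was set against ML day 3 to ask how the growth format affects these genes at the same day. In embryoid bodies 6 members were lower and 1 was higher. The lower ones included the laminin-binding integrin chain Itga3, the heparan sulphate proteoglycans Hspg2 and Agrn, the collagen-binding glycoprotein Sparc, and Itgb8. The higher one was Lama1, the alpha chain of laminin-111, a laminin of the early embryo. These 7 of 39 members (17.9%) include Itgb8, which has no test, as given below. They compare with 3.34% of all genes tested, of which 1.64% were higher and 1.7% lower. The members' median change was -0.27, against 0.02 over all genes, and 15 of the 39 were above 0.

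The laminin chains Lamb3 and Lama3 were below their ML levels without passing the test. Lamb3, a beta chain of epithelial laminins, stood at -2.97 and -3.01 in EB day 3 against -0.64 and -1.86 in ML day 3 (log2 change -1.75, adjusted p 0.233). Both EB arrays lay below both ML arrays, and the ML arrays spread widely. The change of the alpha chain Lama3 was -0.96 (adjusted p 0.141).

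Itga3 pairs with Itgb1 to form a receptor for laminin-511 and other laminins. It stood at -0.24 and -0.91 in EB day 3 and at 2.14 and 1.75 in ML day 3, with no overlap. This was a 5.73-fold lower level in EB day 3 (log2 change -2.52, SE 0.29, adjusted p 0.00368 in limma). A second probe gave -2.58, whereas the junction probe printed above gave -0.90 and did not pass (adjusted p 0.155). Its partner Itgb1, at 1.29 and 1.30 in EB day 3 and 2.24 and 1.69 in ML day 3, did not pass (-0.67, adjusted p 0.179).

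Hspg2, which encodes perlecan, measured 1.88 and 2.13 in EB day 3 and 4.25 and 3.46 in ML day 3. It was 3.61-fold lower in EB day 3 (log2 change -1.85, SE 0.31, adjusted p 0.0179 in limma). Agrn measured 4.74 and 4.85 in EB day 3 and 6.0 and 5.85 in ML day 3. That is 2.19-fold lower (log2 change -1.13, SE 0.18, adjusted p 0.0136). Sparc measured 3.41 and 3.51 in EB day 3 and 5.06 and 4.64 in ML day 3, a 2.63-fold lower level (-1.39, SE 0.30, adjusted p 0.0406). Its second probe gave -1.33 and did not pass when each probe was tested (adjusted p 0.0736). The call of Sparc was lost in 5 of 10 alternatives, among them quantile normalization and the authors' deposited values, and in 3 of 4 fits that left out an array. In each of these 3 genes both EB arrays lay below both ML arrays.

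Lama1 went the other way. It measured -2.64 and -2.08 in EB day 3 and -4.08 and -3.69 in ML day 3, and was 2.87-fold higher in EB day 3 (log2 change 1.52, SE 0.34, adjusted p 0.0436 in limma). Part of the endoderm marker list was also higher in EB day 3. Its summed linear level was 60.4 and 60.1 in EB day 3, against 7.69 and 6.88 in ML day 3. Of its 15 tested markers 4 were called higher (Sox17, Gata6, Foxa2 and Gata4) and none lower. The list as a whole was not shifted, with a median log2 change of 0.018, against 0.022 over all genes, and 8 of 15 above 0. Of its 17 markers 3 were dim on both EB day 3 arrays and 4 on both ML day 3 arrays. The summed level of the endothelium list also differed, at 13.7 and 24.05 in EB day 3 and 5.86 and 3.45 in ML day 3. Of its 10 markers 2 were called higher, and the list's median log2 change was 0.24, with 7 of 10 above 0. Of the other marker lists, fibroblast had 1 of 13 lower, blood and platelet 1 of 7 higher and 1 lower, and in limma leukocyte and macrophage had 0 of 8 and trophoblast 0 of 8 called (1 and 2 at an unadjusted p under 0.05). The part of these cells in the result was not tested. Itgb8, whose product activates latent TGF-beta with Itgav, was well above background only in ML day 3, on both arrays. It measured -6.73 and -7.66 in EB day 3 and -5.20 and -5.41 in ML day 3, so its fold is a bound, at least 1.05-fold lower in EB day 3. It passed the filter on dim probes only through ML day 3, where it is high, so its difference of -1.89 is a description with no test, and without it 5 members were lower. With normexp background correction the difference was -0.19. Only the earlier annotation names this probe.

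Members that did not pass the test spread on both sides. The fibronectin receptor chain Itga5 changed by -1.28 (adjusted p 0.132), the collagen receptor chain Itga11 by -1.84 (adjusted p 0.095), Lama5 by -1.02 (adjusted p 0.105), and Itga9, which binds tenascin, by 1.37 (adjusted p 0.0988). Vtn, the adhesive protein vitronectin, was well above background on 1 of the EB day 3 arrays and on neither ML day 3 array (adjusted p 0.171). Fibronectin (Fn1) could not be ordered, with 1.33 and 3.18 in EB day 3 and 2.24 and 0.53 in ML day 3. The laminin receptor chain Itga6 (log2 change 0.01), the nidogens Nid1 (-0.08) and Nid2 (-0.12) and the laminin beta chain Lamb1 (-0.27) were near 0.

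**Figure D2:**
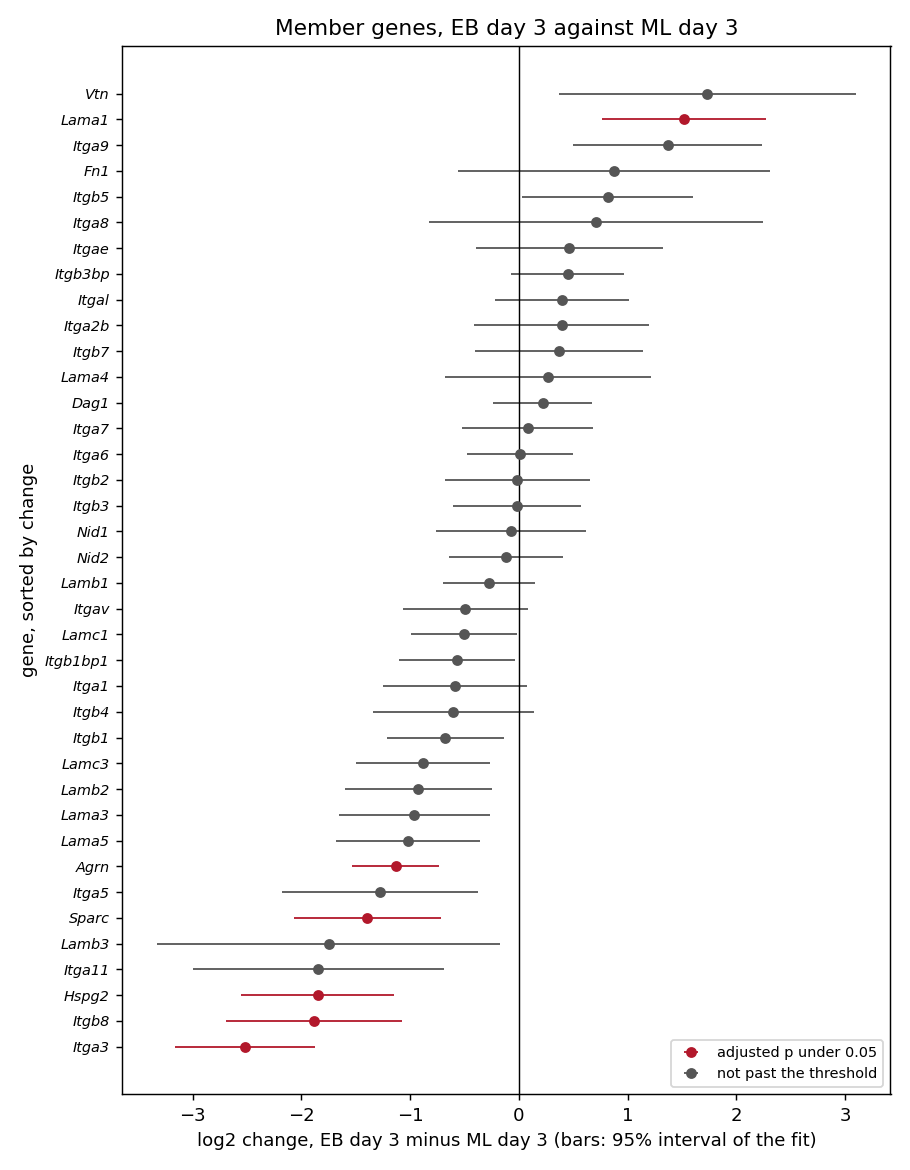
Log2 change of EB day 3 minus ML day 3 for 38 of the tested genes (points) with the 95% interval of the fit (bars), sorted. Red marks adjusted p under 0.05. Itga3, Itgb8, Hspg2, Sparc and Agrn lie left of 0 and Lama1 right of it. Itgb8 is drawn red but is a description with no test.

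Among the partners of these receptors, genes of the focal adhesion list were lower in EB day 3 for 2 of 22 and higher for none. These were Parva (log2 change -1.86, adjusted p 0.0284), which links integrin-linked kinase to actin, and the adaptor Bcar1 (-0.95, adjusted p 0.0422). The list's median was -0.49. Of 9 other laminin and matrix receptors, 2 were lower, namely the laminin-511 receptor Bcam (-2.41, adjusted p 0.00221) and the collagen receptor Ddr1 (-1.43, adjusted p 0.021). Of 12 matrix assembly and crosslinking genes, only the lysyl oxidase Lox was called (-3.91, adjusted p 0.00553). In limma 0 of 6 tested basement membrane collagens (median 0.33, 2 at an unadjusted p under 0.05) and 0 of 11 dystroglycan glycosylation genes (median 0.13, 1 at an unadjusted p under 0.05) were called.

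The call of Itga3 held whichever of the 4 arrays was left out. Leaving out EB day 3 replicate 2 gave 1 member, as did leaving out ML day 3 replicate 1, whereas 3 were called after EB day 3 replicate 1 was dropped and 15 after ML day 3 replicate 2 was. With these groups alone in the fit it was 0. Lama1 was not called under other scalings, where 0 of 4 called members (quantile normalization), 0 of 5 (the authors' deposited table) and 0 of 5 (normexp background correction) were higher.

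At day 1 the formats could not be separated for any member. EB day 1 against ML day 1 gave 0 of 39 members called by limma, where 7 had an unadjusted p under 0.05, all of them lower in EB day 1. Over all genes 23, or 0.131%, were called (0.0228% higher and 0.108% lower), and 1629 had an unadjusted p under 0.05. The median change of the members was -0.11 and that of all genes -0.06. Of the genes called at day 3, Itga3, Hspg2, Sparc and Agrn had day 1 changes on the same side, whereas Lama1 (-0.36, adjusted p 0.814) and the dim Itgb8 (0.41, adjusted p 0.799) did not. Itga3 measured 0.17 and 0.25 in EB day 1 and 1.94 and 1.44 in ML day 1 (log2 change -1.48, 95% interval -2.13 to -0.84, adjusted p 0.121). Sparc differed by -0.97 and Agrn by -0.56, each with both EB arrays below both ML arrays and an adjusted p over 0.3. Of the pathway lists, Bcam (-1.65, adjusted p 0.0497) and Lox (-3.49, adjusted p 0.0497) were lower in EB day 1.

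The change over days was then compared between formats. For day 3 minus day 1 in EB set against the same in ML, 0 of 39 members were called by limma, 9 had an unadjusted p under 0.05, and 43 genes in all, 0.245%, were called (0.154% higher and 0.0913% lower), with 1788 at an unadjusted p under 0.05. The largest member differences were in Vtn (2.56), Itgb8 (-2.30) and Lama1 (1.88, 95% interval 0.81 to 2.95, adjusted p 0.193). Those of Vtn and Itgb8 are descriptions with no test, since both were mostly dim here. Among these groups Itgb8 was well above background only in ML day 3, and Vtn only on 1 EB day 3 array. So a change called in one format only, as given next, is not shown to differ between the formats.

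**Figure D3:**
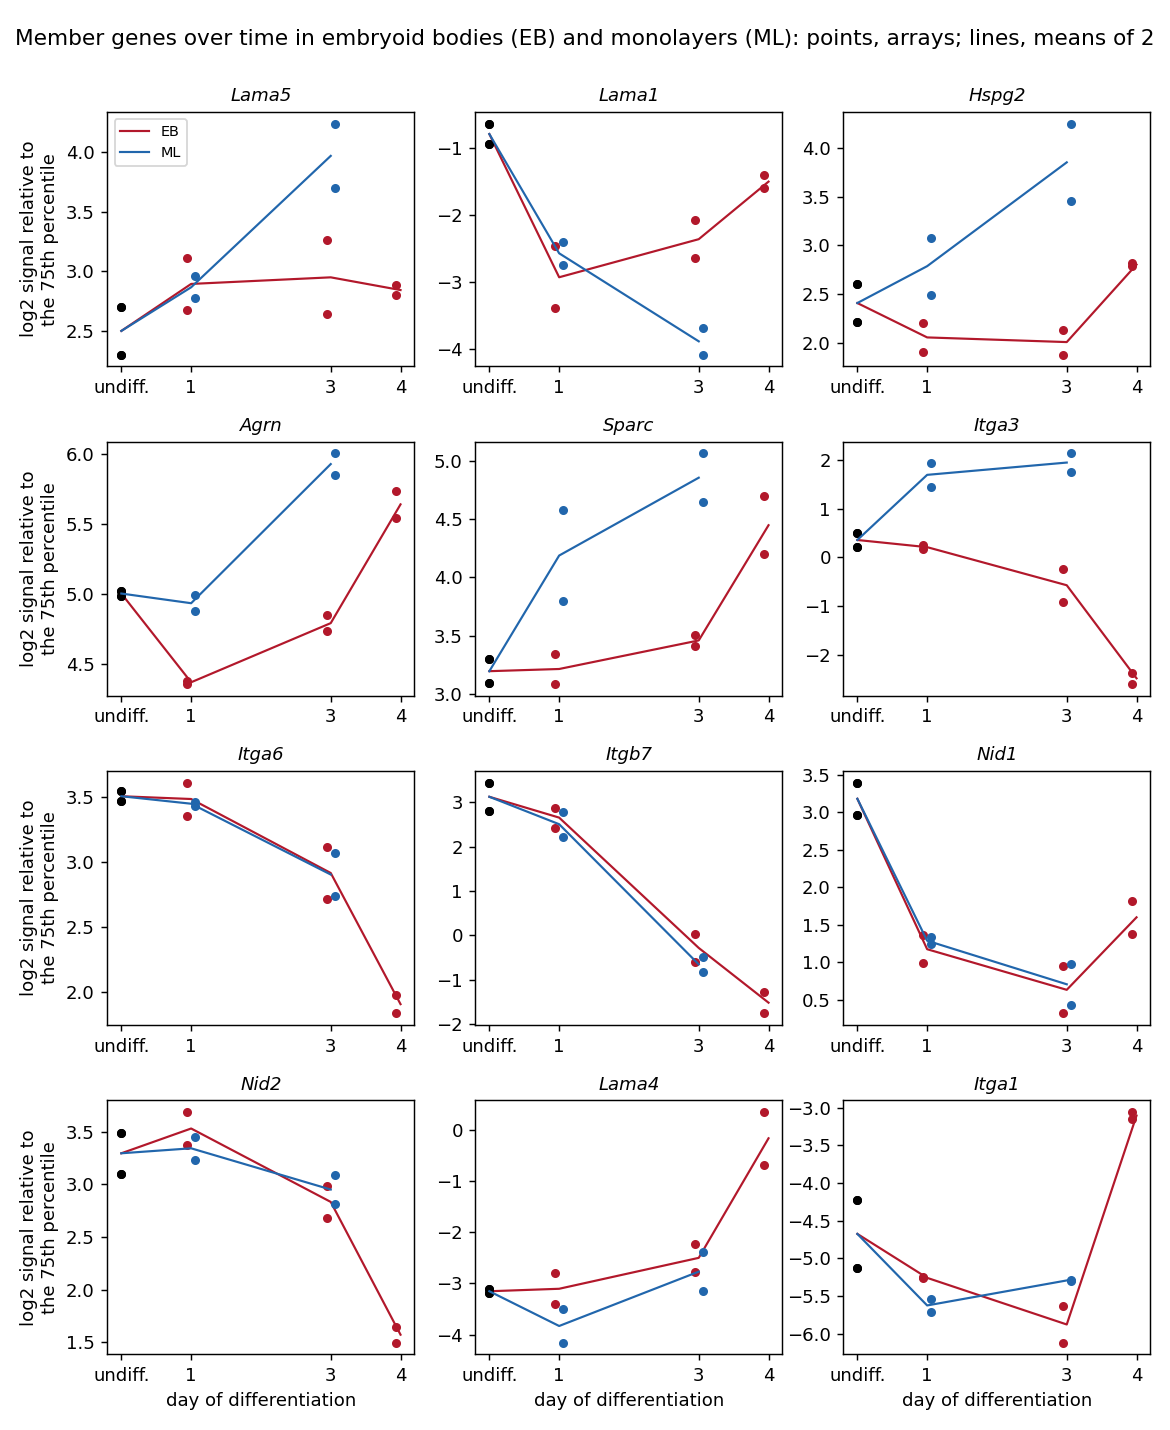
Log2 signal relative to the array's 75th percentile (y) by day of differentiation (x) for 12 members in EB (red) and ML (blue), with undifferentiated arrays in black. Points are arrays and lines join means of 2. Itga3, Hspg2, Agrn and Sparc lie higher in ML at days 1 and 3, Lama1 parts at day 3, and Itgb7 and Itga6 run together in both formats.

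Within embryoid bodies 3 members were called between day 3 and day 1 (7.69% of 39), against 5.49% of all genes (3.14% higher and 2.35% lower). Itgb7, the beta chain that pairs with Itga4 or Itgae, fell to 0.03 and -0.60 in EB day 3, against 2.43 and 2.88 in EB day 1. That is a 7.66-fold lower level (log2 change -2.94, SE 0.34, adjusted p 0.00361 in limma). Itga9 rose to 0.26 and 1.12, against -0.60 and -1.36 in EB day 1 (1.67, adjusted p 0.0394), and a second probe gave 1.71. Lama3, an alpha chain of epithelial laminins, fell to -4.93 and -5.50, against -3.23 and -3.99 in EB day 1 (-1.61, adjusted p 0.0217). Its second probe changed by 0.22 (adjusted p 0.832), so the probes of Lama3 disagree, and 1 of the EB day 3 arrays was well above background. Around these members, 3 of 6 basement membrane collagens rose, namely Col4a1 (2.28), Col4a2 (2.22) and Col4a5 (1.94), as did 3 of 12 matrix assembly genes, Loxl2 (2.97), P4ha2 (1.42) and the collagen IV crosslinker Pxdn (1.05). The endoderm list, which holds Col4a1, stood at 60.4 and 60.1 in EB day 3 and at 7.76 and 3.76 in EB day 1. In it 5 of 15 markers were called higher and none lower (median log2 change 0.81). Other marker lists moved too. Of 8 trophoblast markers 3 were higher and none lower (median 1.12). Of 10 endothelium markers 1 was higher and 2 were lower. The fibroblast list had 1 of 13 lower and the leukocyte and macrophage list 1 of 8 lower. The part of these cells was not tested. Leaving out either EB day 1 array, or EB day 3 replicate 2, gave 1 member, and dropping EB day 3 replicate 1 gave 5, with Itgb7 called in all 4 fits. Of the 4 members called with values of the authors' deposited table, 2 were higher.

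In monolayers, 3 members rose and 3 fell between day 3 and day 1 (15.4% of 39), against 12.5% of all genes (5.8% higher and 6.7% lower). The 3 that rose include Itgb8, which has no test, as given below. Itgb7 fell here too, to -0.83 and -0.49 in ML day 3 against 2.22 and 2.79 in ML day 1. It was 8.93-fold lower (log2 change -3.16, SE 0.34, adjusted p 0.00134 in limma). Itgae, which pairs with Itgb7 to bind E-cadherin, fell to -3.24 and -2.13 against -1.21 and -0.98 in ML day 1 (-1.58, adjusted p 0.0282). In embryoid bodies Itgae changed by -1.39 over the same days and did not pass (adjusted p 0.0702). Lama1 fell to -4.08 and -3.69 against -2.40 and -2.74 in ML day 1 (-1.31, adjusted p 0.0353).

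Agrn rose to 6.0 and 5.85 in ML day 3 against 4.99 and 4.88 in ML day 1, a 1.99-fold increase (log2 change 0.99, SE 0.18, adjusted p 0.00987 in limma). Lama5, the alpha chain of laminin-511, rose to 4.24 and 3.70 against 2.77 and 2.96 (1.1, adjusted p 0.0396, or 0.0539 in limma with the clone number as a block). Itgb8, counted among the 3 that rose, differed by 1.76 on the log2 scale. Its difference is again set by the filter and has no fold, since its ML day 1 arrays were dim, and with normexp it was 0.14. Just beyond the threshold were Lamb3 (2.43, adjusted p 0.0525), Hspg2 (1.07, adjusted p 0.0549), Lamb2 (1.01, adjusted p 0.0581) and Itgb1 (0.77, adjusted p 0.0665). Of these, Lamb3 was well above background on only 1 of the ML day 1 arrays. The median of the laminin chains was 0.74 and that of all genes -0.14. Of the 22 focal adhesion genes 5 rose and 2 fell, among them the actin regulator Zyx (1.51), Parva (1.32) and the integrin activator Fermt1 (1.22) on the higher side and Tns3 (-2.23) on the lower. Beside these, 5 of 10 endothelium markers were lower and 1 higher in ML day 3, 2 of 8 leukocyte and macrophage markers were lower and 1 higher, and 2 of 15 endoderm markers were higher and 1 lower. Median log2 changes were -0.94 for the endothelium list, -0.38 for the leukocyte list and 0.90 for the endoderm list, against -0.14 over all genes. The summed levels were nonetheless higher in ML day 3 for each of these lists. The leukocyte level was 6.88 and 5.70 in ML day 3 and 4.45 and 3.93 in ML day 1. The endothelium level was 5.86 and 3.45 in ML day 3 and 3.00 and 2.51 in ML day 1. The endoderm level was 7.69 and 6.88 in ML day 3 and 2.68 and 2.91 in ML day 1. Their part was not tested. Dropping ML day 3 replicate 2 gave 14 members, dropping ML day 1 replicate 1 gave 3, dropping ML day 3 replicate 1 gave 2 and dropping ML day 1 replicate 2 gave 1, with Itgb7 called in all 4 fits. With normexp background correction 9 of 13 called members were higher.

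Between EB day 4 and EB day 3, 5 members rose and 8 fell (33.3% of 39), against 12.8% of all genes (3.9% higher and 8.86% lower). The 5 that rose include Vtn, which has no test, as given below. EB day 4 has its own slide, scan day and, per the file headers, scanner, which cannot be told apart from the day. The genes that rose were matrix proteins and a collagen receptor chain. Vtn measured -1.91 and -1.67 in EB day 4 and -5.84 and -4.21 in EB day 3, where 1 of the 2 arrays was well above background. Its log2 difference was 3.24, between 1.43 (normexp) and 4.05 (without EB day 3 replicate 2) over the alternatives. Vtn passed the filter only through EB day 4, where it is high, so this is a description with no test, and without it 4 members rose. Itga1, the collagen IV receptor chain, measured -3.05 and -3.15 in EB day 4 and was dim on both EB day 3 arrays. It was at least 4.84-fold higher (log2 change 2.78, adjusted p 0.0021). This rests on the 1 of its 4 probes that passed the filter. The log2 change of Itga1 was between 0.95 and 2.78 over the alternatives that kept every array of the 2 groups. Lama4, a laminin alpha chain of vessels and mesenchyme, measured -0.68 and 0.35 in EB day 4 and -2.78 and -2.23 in EB day 3, a 5.05-fold increase (2.34, adjusted p 0.0109), and its other 2 probes gave 2.80 and 2.67. Lamb2 rose by 1.08 on the log2 scale (adjusted p 0.0475, or 0.063 with the clone number as a block) and Agrn by 0.85 (adjusted p 0.0189).

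Receptor chains were among the genes that fell. Itga3 measured -2.60 and -2.37 in EB day 4 and -0.24 and -0.91 in EB day 3, a 3.76-fold lower level (log2 change -1.91, SE 0.29, adjusted p 0.00583 in limma). Itga6, which pairs with Itgb1 or Itgb4 as a laminin receptor, measured 1.98 and 1.84 in EB day 4 and 3.12 and 2.72 in EB day 3 (-1.01, adjusted p 0.0198). Dag1 measured 0.12 and 0.14 in EB day 4 and 1.33 and 1.01 in EB day 3 (-1.05, adjusted p 0.0138), and its second probe gave -1.23. Itgae fell by 1.68 (adjusted p 0.0242) and Itgb7 by 1.23 (adjusted p 0.0472, or 0.0617 with the clone number as a block) on the log2 scale. The calls of both were lost with normexp background correction. Over the alternatives that kept every array, the log2 change was between -1.68 and -0.36 for Itgae and between -1.23 and -0.82 for Itgb7.

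Nid2, a nidogen that links laminin to collagen IV, measured 1.65 and 1.5 in EB day 4 and 2.99 and 2.68 in EB day 3 (log2 change -1.26, SE 0.23, adjusted p 0.0117 in limma). Its relative Nid1 measured 1.38 and 1.82 in EB day 4 and 0.32 and 0.94 in EB day 3 and did not pass (0.97, adjusted p 0.0685). Lama3 was below background in EB day 4 and has no fold (-1.27, adjusted p 0.0299), and with another background correction its sign turned. Itgb3bp, a centromere protein that the name pattern takes and no adhesion gene, fell by 0.92 (adjusted p 0.0327). Of the genes that modify dystroglycan with sugars, 3 of 11 rose, among them Rxylt1 (0.96), a xylosyltransferase of that pathway. Of the 22 focal adhesion genes 2 fell, Fermt1 (-1.75) and Tns1 (-0.95), and none rose. The endothelium list stood at 30.4 and 24.5 in EB day 4 and 13.7 and 24.05 in EB day 3, and the fibroblast list at 17.1 and 23.2 in EB day 4 and 10.9 and 12.2 in EB day 3. Markers were called in all 6 lists. Higher were 3 of 13 fibroblast, 2 of 7 blood and platelet, 1 of 10 endothelium, 1 of 8 trophoblast and 1 of 15 endoderm markers. Lower was 1 of 8 leukocyte and macrophage markers. The part of these cells was not tested.

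**Figure D4:**
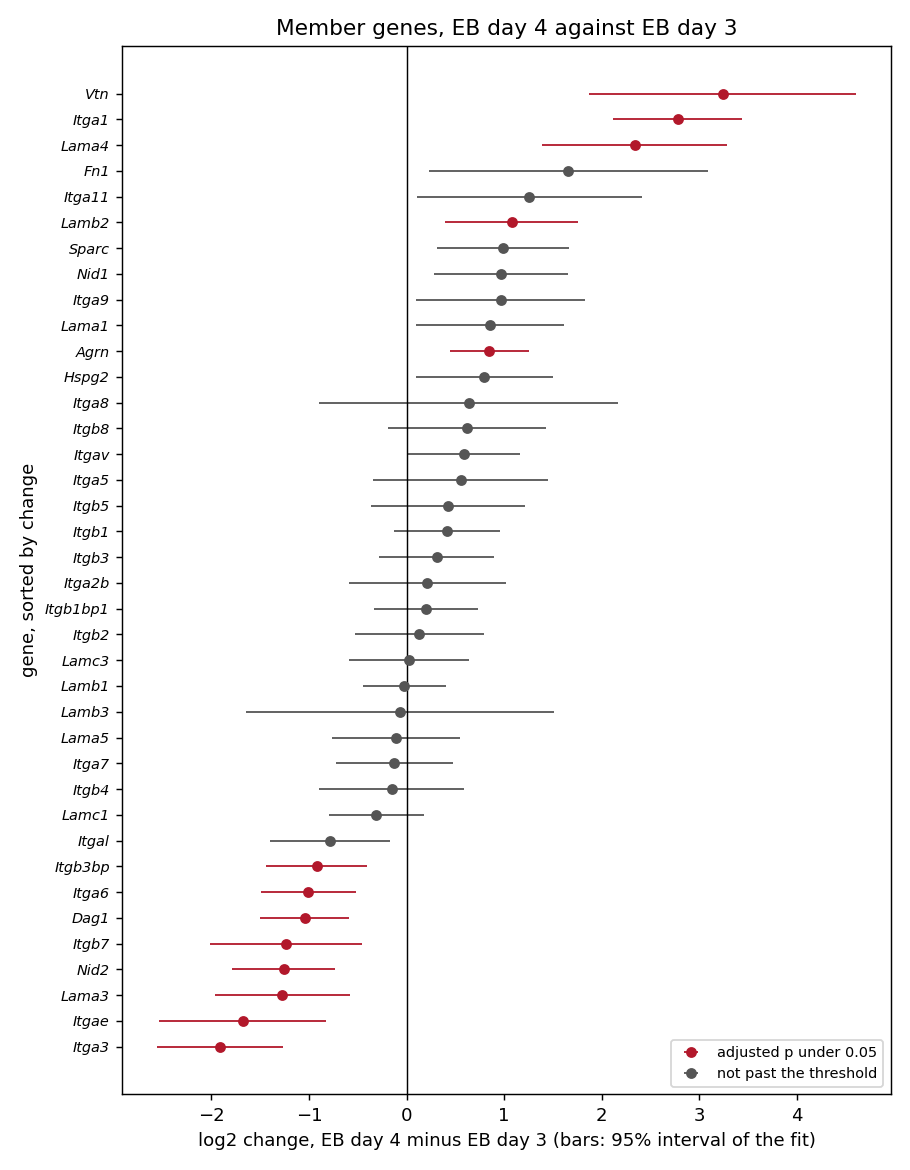
Log2 change of EB day 4 minus EB day 3 for 38 of the tested genes (points) with the 95% interval of the fit (bars), sorted, red for adjusted p under 0.05. Vtn, Itga1 and Lama4 lie furthest right, and Itga3 and Itgae furthest left. Vtn is drawn red but is a description with no test.

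Leaving out EB day 3 replicate 2 gave 11 members, dropping EB day 4 replicate 1 gave 6, and dropping EB day 3 replicate 1 or EB day 4 replicate 2 gave 2. With these groups alone in the fit it was 1 (Itga1), and with normexp background correction 7 of 12 called members were higher. Itga1 and Itga3 were called whichever array was left out.

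The first step of differentiation was compared in both formats, with the same 2 undifferentiated arrays on the far side, so both results share them. EB day 1 against undifferentiated cells gave 2 members higher and 6 lower (20.5% of 39), against 13.6% of all genes (8.09% higher and 5.46% lower). ML day 1 against undifferentiated cells gave 4 higher and 5 lower (23.1% of 39), against 18.1% of all genes (11.7% higher and 6.43% lower).

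Nid1 had among the largest changes in both. It measured 0.99 and 1.36 in EB day 1 and 1.33 and 1.24 in ML day 1, against 3.40 and 2.96 in undifferentiated cells. Its log2 change was -2.01 in EB (adjusted p 0.00768 in limma) and -1.89 in ML (adjusted p 0.00855). Lama1 measured -3.39 and -2.47 in EB day 1 and -2.40 and -2.74 in ML day 1, against -0.95 and -0.64 in undifferentiated cells. It was 4.39-fold lower in EB day 1 (adjusted p 0.00843) and 3.42-fold lower in ML day 1 (adjusted p 0.0127). Lama1 and Nid1 thus fell in both formats at day 1, and no differentiated array reached the undifferentiated level of either gene. Itga2b, the platelet fibrinogen receptor chain, fell by 1.98 in EB and by 1.49 in ML, Itga7 by 0.97 and 1.34, and Dag1 by 0.89 and 0.87, all on the log2 scale. Itga2b was well above background on only 1 of the EB day 1 arrays. Its calls in both formats were lost with normexp, as was the call of Itga7 in ML day 1. The call of Itga7 in EB day 1 was lost under quantile normalization, normexp, the authors' deposited values and 5 further alternatives, the clone number as a block among them (adjusted p 0.0532), and in all 4 fits that left out an array.

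Itgb3, the beta chain of the vitronectin receptor, measured 0.02 and -0.27 in EB day 1 and 0.04 and 0.05 in ML day 1, against -1.09 and -1.23 in undifferentiated cells. It rose 2.04-fold in EB and 2.30-fold in ML (adjusted p 0.0342 and 0.0186 in limma). Its second probe did not bear this out, with log2 changes of 0.51 in EB and -0.55 in ML, neither past the threshold. Itgb3bp rose in both, by 0.94 and 1.03. Agrn fell in EB day 1 (-0.63, adjusted p 0.0474, or 0.0617 in limma with the clone number as a block), and in ML day 1 its levels of 4.99 and 4.88 lay beside 4.98 and 5.02 in undifferentiated cells. Itga3 rose in ML day 1 (1.34, adjusted p 0.0174), at 1.94 and 1.44 against 0.50 and 0.21 in undifferentiated cells. Its call was lost when its probes were averaged, and its change was 0.87 to 1.34 over the alternatives that kept every array. Sparc also rose in ML day 1 (0.99, adjusted p 0.0496). The call of Sparc was lost in 6 of 9 alternatives, among them quantile normalization and the clone number as a block (adjusted p 0.0539). It was also lost in all 4 fits that left out an array.

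In EB day 1, 7 of 12 matrix assembly genes fell and none rose, led by Loxl2 (-3.43), P4ha1 (-2.45), Loxl1 (-2.15) and Lox (-2.14), and in ML day 1, 4 of 12 fell, P4ha1 (-2.77), Loxl2 (-2.29), P4ha2 (-1.40) and Plod2 (-1.37). Of the 6 basement membrane collagens 2 fell in EB day 1, Col4a2 (-2.06) and Col4a1 (-1.46), and 3 in ML day 1, Col4a5 (-2.08), Col4a2 (-1.65) and Col4a1 (-1.27). Cell type markers also differed at this step. Of 13 fibroblast markers 4 were lower in EB day 1 and 3 in ML day 1. Their summed level was 17.3 and 14.3 in EB day 1 and 19.3 and 26.3 in ML day 1, against 148.5 and 44.5 in undifferentiated cells, with 13 of 17 markers well above background there and 4 dim. On the undifferentiated array with the higher sum, Nid1 was 3.40 and Lama1 -0.95, and on the other Nid1 was 2.96 and Lama1 -0.64. Of 15 endoderm markers 3 were lower and 1 higher in EB day 1 and 5 lower in ML day 1, with summed levels of 7.76 and 3.76 in EB day 1 and 2.68 and 2.91 in ML day 1, against 6.62 and 4.90 in undifferentiated cells. Of 10 endothelium markers 4 were lower in each format. The part of these cells in the results was not tested.

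For EB day 1, dropping its replicate 1 gave 0 members and its replicate 2 gave 2, and dropping undifferentiated replicate 1 gave 4 and replicate 2 gave 2. For ML day 1, dropping its replicate 1 gave 1 and its replicate 2 gave 0, and dropping undifferentiated replicate 1 gave 8 and replicate 2 gave 2. With normexp background correction 5 of 9 members called in ML day 1 were higher. With the 2 compared groups alone in the fit, the counts were 3 and 2.

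Some members passed the threshold in none of the 8 comparisons, which does not show that their levels were equal. Lamb1, the beta chain shared by the early laminins, ranged between 1.74 and 2.66 on the 12 arrays, and Lamc1, their gamma chain, between 2.46 and 3.73. Itgb1 ranged between 0.71 and 2.24 and Itgav between -1.46 and -0.43, also without a call. Itgb5, a vitronectin receptor chain, lay between 3.06 and 5.45 with its lowest value in undifferentiated cells and its highest in EB day 4, and passed no test. Levels of different genes are not ranked against each other here, because each comes from its own probe. Probes of a gene disagreed in some further cases. One Itgal probe fell between day 3 and day 1 in EB (-2.64) and in ML (-3.52), while the probe used for that leukocyte integrin chain changed by -0.17 and -0.74. An Itga8 probe that crosses an exon junction fell between EB day 4 and EB day 3 (-2.36), while the other 2 gave 0.60 and 0.64.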

How the data were processed

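Total RNA was labelled with Cy3 and hybridised to 12 Agilent whole mouse genome arrays, per the labels. Spot intensity in the scanner files had been background-corrected by the authors with Feature Extraction, whose version is 10.5.1.1 (undifferentiated), 10.7.3.1 (EB days 1 and 3, ML days 1 and 3) or 10.7.1.1 (EB day 4) per the file headers, and 9.5.1.1 per the submitters' processing notes. The authors' deposited table holds linear intensity with identical quantiles in every column (median 36.6, 75th percentile 488), correlates with the scanner values (lowest r 0.999), and was an alternative only.

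Values were log2 processed signal scaled per array to its 75th percentile (43379 spots that are no controls). Outlier spots (51 to 172 per array) were left out, no spot was saturated, and replicate spots were averaged. Probes well above background on both arrays of any 1 group stayed in (26174 of 41174; 32 lacked a usable spot on an array). A gene's probe was the kept one with the highest mean. Names came from RefSeq accessions for 26986 probes, from current symbols or synonyms for 5339 and 1078, and from the files for 7771. limma 3.58.1 (R 4.3.3) was run on all arrays with a mean for each of 6 groups, which leaves 6 residual degrees of freedom (two-sided, Benjamini-Hochberg). It was tested on simulated data with independent noise and no slide or scan day effect, so that test cannot speak to such effects. Where a group was dim on both arrays, a fold is a bound ("at least"), set from the lowest signal among probes well above background.

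Every member could be named, and genes of 5 pathway lists only where called, up to 4 a list and comparison. The stem cell markers and 2 promoter motifs were chosen after values were seen. Members and lists were chosen with earlier results of these data known. Summed levels cover 6 lists of cell type markers (on the linear scale). The number of arrays limits the precision. Both arrays of a group come from independent experiments per the design text, but nothing says the clones are separate cell lines. Alternatives varied the background correction, scaling, filter, probe choice, prior, arrays fitted and clone block. Some genes counted in the totals are not reported here by name.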

Additional observations from a re-analysis of the deposited data

How the results depend on the processing

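Of 46 gene changes called, 7 were called in every alternative other than leaving out an array, 5 in every fit that left out an array, and 3 in both, namely Itgb7 in EB and in ML (day 3 against day 1) and Itga1 (EB day 4 against day 3). The 46 changes include those of Itgb8 and Vtn that were described above as having no test. Of 606 refitted values of called genes 605 kept their sign. Lama3 in EB day 4 against day 3 turned to 0.38 with normexp background correction, at a level near background, and the cause was not tested. The member counts that moved by over 1.5 times were these. For EB day 3 against ML day 3 (7 called) there were 4 with the arrays of scan day 2 alone, 4 without the filter on dim probes, 4 with quantile normalization (none higher) and 0 with the compared groups alone, and 1 to 15 when an array was left out. For EB day 3 against EB day 1 (3) there were 6 when each probe was tested, and 1 to 5 when an array was left out. For ML day 3 against ML day 1 (6) there were 3 with scan day 2 alone, 2 with the compared groups alone, 3 without the filter, 13 with normexp (9 higher) and 11 with a trended prior (7 higher), and 1 to 14 when an array was left out. For EB day 4 against EB day 3 (13) there was 1 with the compared groups alone, and 2 to 11 when an array was left out. For EB day 1 against undifferentiated (8) there were 3 with the compared groups alone and 5 without the filter, and 0 to 4 when an array was left out. For ML day 1 against undifferentiated (9) there were 2 with the compared groups alone, and 0 to 8 when an array was left out. EB day 1 against ML day 1 and the interaction stayed at 0 members in all alternatives. Fits on the compared groups alone have fewer residual degrees of freedom. Where an array was left out, the lone array of its group was taken to vary like the other groups. The clone number as a replicate block gave 7, 0, 0, 4, 5, 11, 6 and 8 members in the order EB day 3 and day 1 against ML, the interaction, EB day 3, ML day 3 and EB day 4 against the earlier day, and EB and ML day 1 against undifferentiated. Under it the calls of Agrn and Itga7 in EB day 1 against undifferentiated, Sparc in ML day 1 against undifferentiated, Lama5 in ML day 3 against ML day 1, and Lamb2 and Itgb7 in EB day 4 against EB day 3 were lost. Correlations of replicate differences were -0.16 to 0.23, and the labels do not say what a clone number stands for. Slide as a block was not run, because for the comparisons within a slide it leaves the fit of group means as it is. Over all genes, counts moved too. EB day 3 against ML day 3 gave 585, 375 without the filter, 0 with the compared groups alone and 115 to 2470 when an array was left out. EB day 1 against ML day 1 gave 23 and 0 to 23 in the alternatives, and the interaction 43 and 0 to 297. EB day 3 against EB day 1 gave 963, 576 without the filter, 639 with a stricter one and 103 to 996 when an array was left out, and ML day 3 against ML day 1 gave 2192, 665 with the compared groups alone and 378 to 4727 when an array was left out. EB day 4 against EB day 3 gave 2237 with 683 higher, 2898 with 1695 higher under normexp, 7604 with 5612 higher without the filter, 502 with the compared groups alone and 345 to 1616 when an array was left out. EB day 1 against undifferentiated gave 2376, 768 with the compared groups alone and 200 to 2544 when an array was left out, and ML day 1 against undifferentiated 3170 with 2043 higher, 2296 with 1242 higher in the authors' values, 324 with the compared groups alone and 251 to 3434 when an array was left out. Dim probes limit Itgb8, Vtn, Itga1, Lama3, Lamb3, Itga2b, Lamc3 and Itgb2, which were not well above background on both arrays of some groups.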
